A study of Mus musculus with 4 samples.

Results

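The antioxidant enzymes followed here are the superoxide dismutases Sod1 and Sod2, the peroxiredoxins Prdx1, Prdx2, Prdx3, Prdx5 and Prdx6, the glutathione peroxidases Gpx1 and Gpx4, and catalase (Cat). They were measured on Affymetrix whole-genome mouse expression arrays, on which a probe set is a group of short probes that together give 1 value for a transcript. A probe set was taken when the platform annotation gave it 1 of these 10 symbols and no other. This rule found 17 probe sets for 7 of the 10 genes, among 34945 probe sets with a single symbol that stand for 18193 genes. Prdx5 and Prdx6 had no probe set under the rule, and the 5 probe sets of Prdx1 also carry the name of the pseudogene Gm21399, so these 3 genes were not analysed here.

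TRAP RNA (replicates 2 and 4), the mRNA recovered with GFP-tagged ribosomes, was compared with input RNA of the whole midbrain dissection (replicates 1 and 2). Input is the study's word for what the labels give as unbound (total) RNA. Each array came from a pool of 5 adult mice of both sexes, 6 to 12 weeks old, of the Slc6a3 JD1640 TRAP line. All mice, those of the input pools included, carried the EGFP/RPL10A transgene at the start codon of Slc6a3 in a bacterial artificial chromosome. The transgene was therefore driven by Slc6a3 regulatory DNA in 1 founder-derived line, on a mixed FVB and C57BL6/J background. By the methods, input was taken alongside TRAP from each pool, so the TRAP and input arrays numbered 2 would share 1 pool, and the fit treats the 4 arrays as independent. Pools were the replicates, so the spread between individual mice was not measured.

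Superoxide, a by-product of mitochondrial respiration, is converted to hydrogen peroxide by the superoxide dismutases. Peroxiredoxins, glutathione peroxidases and catalase then remove the peroxide, the peroxiredoxins at the expense of thioredoxin and the glutathione peroxidases at the expense of glutathione. In dopamine neurons hydrogen peroxide also arises when monoamine oxidase breaks down dopamine, and the neurons of the substantia nigra are among those lost in Parkinson's disease.

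Levels below are in arbitrary expression units, which are 2 raised to the deposited log2 value, and differences are log2 TRAP minus input with the standard error of limma, a linear model with a shared variance estimate. Adjusted p-values are those of limma after Benjamini-Hochberg adjustment over 45037 probe sets. A probe set was taken as above background when the 2 arrays of TRAP, or the 2 of input, were at 50 units or higher, which held for 17073 of all probe sets and for 14 of the 17. Brightness depends on the probes, so levels are compared between arrays. Between probe sets they serve only to choose 1 for a gene, to name values near the top of the range and to sum marker lists on each array. Such sums are led by the brightest probe sets. The median log2 difference of the 17073 was 0.44, and centring each array on its bright probe sets lowered every difference by 0.41. A log2 difference of 0.44 is therefore the midpoint of the probe sets above background. It is called the median of the arrays below, and differences relative to it are given beside some of the main ones. The main differences themselves are not set against it. The arrays were alike in how much they detected, with 35.2% to 35.8% of probe sets at or over 50 units. They differed in 3′ bias, that is in how far the 3′ control of Gapdh exceeds its 5′ control: by 4.96 and 3.52 log2 units in TRAP, and by 6.81 and 6.39 in input. The RNA went through two-cycle amplification, and the paper reports every sample above the same RNA integrity number. The source of the difference in bias was not tested. Its part in the results below was not tested either.

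The 250 bases before the RefSeq transcription start (build GRCm38.p6) are shown for the 3 genes with a probe set that passed the threshold and for Sod1, the one analysed gene with an antioxidant response element core there. Capitals mark 3 motifs on either strand: the GC box (GGGCGG, bound by Sp1), the CCAAT box, and the antioxidant response element core (TGACNNNGC), through which the transcription factor Nrf2 acts. The windows are chr17:13007589-13007838 (plus strand) for Sod2, chr8:84969372-84969621 (plus) for Prdx2, chr2:103485154-103485403 (minus) for Cat and chr16:90220512-90220761 (plus) for Sod1.
Sod2: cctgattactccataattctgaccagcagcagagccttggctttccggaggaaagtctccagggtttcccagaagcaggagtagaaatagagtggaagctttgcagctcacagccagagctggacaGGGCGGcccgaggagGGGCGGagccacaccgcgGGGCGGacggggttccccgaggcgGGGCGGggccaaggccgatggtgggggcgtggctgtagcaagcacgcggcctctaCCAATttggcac
Prdx2: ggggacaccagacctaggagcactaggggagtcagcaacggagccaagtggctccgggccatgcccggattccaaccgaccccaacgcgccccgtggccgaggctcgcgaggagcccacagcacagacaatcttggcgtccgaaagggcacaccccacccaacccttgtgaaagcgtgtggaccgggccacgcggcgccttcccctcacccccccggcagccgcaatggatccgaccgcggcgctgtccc
Cat: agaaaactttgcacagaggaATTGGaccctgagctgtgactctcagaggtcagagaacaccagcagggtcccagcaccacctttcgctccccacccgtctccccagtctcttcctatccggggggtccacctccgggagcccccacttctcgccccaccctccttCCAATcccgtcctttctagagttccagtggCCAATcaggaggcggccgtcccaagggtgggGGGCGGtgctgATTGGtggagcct
Sod1: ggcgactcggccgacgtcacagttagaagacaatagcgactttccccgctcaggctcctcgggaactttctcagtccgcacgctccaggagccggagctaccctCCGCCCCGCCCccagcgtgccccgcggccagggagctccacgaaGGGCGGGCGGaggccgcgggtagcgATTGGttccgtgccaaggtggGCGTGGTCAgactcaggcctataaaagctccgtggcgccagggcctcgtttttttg
Sod2 held 4 GC boxes and 1 CCAAT box, Cat 1 GC box and 4 CCAAT boxes, and Prdx2 no match to any of the 3 motifs. Sod1 held 4 GC boxes in 2 overlapping pairs, 1 CCAAT box and 1 antioxidant response element core, which begins 56 bases before the start on the opposite strand. All 7 genes had a promoter in the table, and 5 of them held a GC box in at least 1 window, 4 a CCAAT box and 1 the element core. Of 32851 mouse promoter windows of this length, 32.7% held a GC box, 33.8% a CCAAT box and 10.2% the element core. These shares are per window, whereas Gpx4 was counted over several windows. Apart from Gpx1 (42%), the windows of the analysed genes were 55.6% (Prdx3) to 69.2% (Prdx2) G and C. The median of all promoters was 52.4%. The letters describe these windows only, and whether any factor binds there was not measured.

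Most of the antioxidant enzyme transcripts had higher values in TRAP than in input, and catalase did not. On 10 of the 14 probe sets above background both TRAP arrays lay above both input arrays, beside 51.5% of all probe sets above background, and on 1 of the 14 both lay below, beside 24.9%. The 10 covered Sod1, Sod2, Prdx2, Prdx3, Gpx1 and Gpx4, and the 1 was a catalase probe set. By limma 2 of the 14 rose, 1 each for Sod2 and Prdx2, beside 18.8% of all probe sets above background that were higher, and 1 of Cat fell, beside 9.13% that were lower. The share of members past the threshold was thus close to that of the whole array in either direction. Their median difference was 0.91 log2 units, against 0.44 for all probe sets above background. Several of the 14 report the same gene and are not independent. Of the probe sets in the fit 34.5%, nearly all below background, had no variance within either fraction. With only the 17073 above background in the fit, where 0.498% had none, 5 of the 14 rose, beside 23.2% of all in that fit, and 1 fell, beside 11.6%. The 3 added rises were Sod2 1448610_a_at, Prdx2 1418506_a_at and Gpx1 1460671_at, with an adjusted p of 0.0457, 0.0278 and 0.0453 by limma. Without any 1 array the Sod2 and Prdx2 rises did not pass. The few calls higher were of other probe sets, Cat 1416430_at (0.16 without TRAP replicate 2) and Prdx3 (2.07 without input replicate 1). TRAP was above input on 8 and below it on 3 of the 14 after centring, beside 36.3% and 35.6% of all, and likewise on 8 and 3 after quantile normalization, beside 37.7% and 34.4%.

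**Figure D1:**
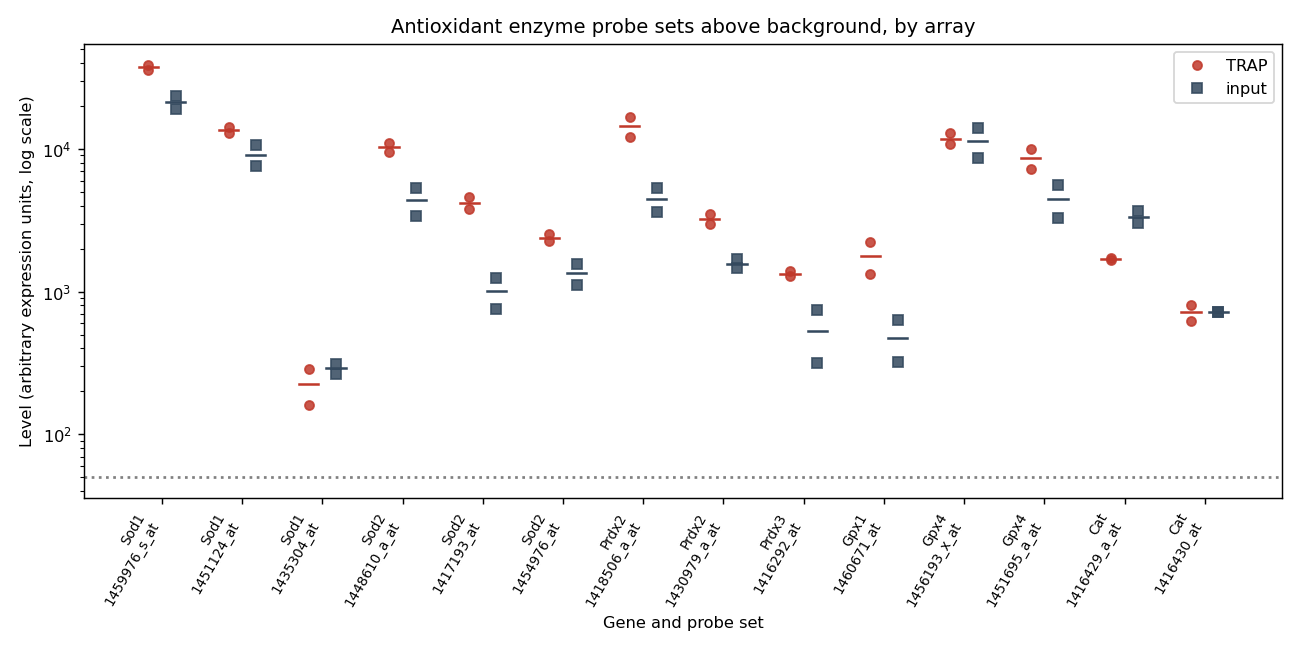
Level of each antioxidant enzyme probe set above background in arbitrary expression units (log scale). Red circles are the 2 TRAP arrays, dark squares the 2 input arrays, short lines the means and the dotted line 50 units; for Sod2 1417193_at the TRAP arrays lie at 3797 and 4593 units and the input arrays at 1252 and 759.

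Sod2, the manganese superoxide dismutase of the mitochondrial matrix, was higher in TRAP on each of its 3 probe sets above background, and 1 of them passed the threshold. Its probe set 1417193_at was at 3797 and 4593 units on TRAP replicates 2 and 4, against 1252 and 759 on input replicates 1 and 2. Both TRAP arrays were well above both input arrays. The mean was 4195 ± 563 units in TRAP and 1005 ± 349 in input (SD, n = 2 each), a 4.29-fold rise (log2 difference 2.10, standard error 0.36, adjusted p = 0.0450 from limma). This is 1.66 above the median of the arrays. Its second probe set, 1448610_a_at, was at 11033 and 9552 units in TRAP and 5348 and 3389 in input (log2 difference 1.27, standard error 0.32, adjusted p = 0.0852 from limma). On 1454976_at the levels were 2520 and 2247 units in TRAP and 1567 and 1122 in input (0.84, standard error 0.24, adjusted p = 0.0879 from limma). All 3 probe sets had separate fractions, and the lowest and highest differences of this 1 transcript were 0.84 and 2.10. The fourth, 1417194_at, stayed between 9.13 and 10.7 units on the 4 arrays and measured nothing above background. When 1 array was left out the difference of 1417193_at stayed between 1.74 and 2.46, but it no longer passed: limma gave an adjusted p of 0.173 without TRAP replicate 2, 0.200 without TRAP replicate 4, 0.0579 without input replicate 1 and 0.0841 without input replicate 2. Fits to 3 arrays have 1 residual degree of freedom, so a call lost in them is not a smaller difference. After quantile normalization the adjusted p was 0.0630.

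Sod1, the copper and zinc superoxide dismutase of the cytosol and the intermembrane space, had TRAP above input on 2 of its 3 probe sets above background. Probe set 1459976_s_at was at 35558 and 38937 units in TRAP and 19000 and 23318 in input. The fractions did not overlap (log2 difference 0.82, standard error 0.15, adjusted p = 0.0503 from limma). This is just outside the threshold and 0.38 above the median of the arrays. Its TRAP values lay near those of Slc6a3 (37882 and 41149 units), whose probe set the paper holds to be likely saturated in TRAP. Whether the difference of this Sod1 probe set is compressed likewise was not tested. The suffix _s_at marks probes shared with other transcripts. On 1451124_at the levels were 12874 and 14286 units in TRAP and 7604 and 10626 in input, without overlap (0.59, standard error 0.23, adjusted p = 0.152 from limma), which is 0.15 above that median. Probe set 1435304_at did not follow the others, with 160 and 287 units in TRAP and 313 and 267 in input (-0.43, standard error 0.41, adjusted p = 0.436 from limma), and its fractions overlapped. Below background, 1440222_at was at 4.85 and 4.87 units in TRAP and 33.8 and 16.3 in input, and 1447761_x_at lay between 4.59 and 4.71 units throughout. After centring the difference of 1459976_s_at was 0.41 (adjusted p = 0.0958 from limma).

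Prdx2 encodes the abundant cytosolic peroxiredoxin of neurons. Probe set 1430979_a_at was at 2980 and 3506 units in TRAP and 1461 and 1687 in input, so that each TRAP array was above both input arrays. With means of 3243 ± 372 units in TRAP and 1574 ± 159 in input (SD, n = 2 each) it rose 2.06-fold (log2 difference 1.04, standard error 0.15, adjusted p = 0.0315 from limma), 0.60 above the median of the arrays. The other probe set, 1418506_a_at, differed by more and missed the threshold, with 12131 and 16632 units in TRAP and 3622 and 5359 in input (log2 difference 1.69, standard error 0.34, adjusted p = 0.0586 from limma). On both probe sets replicate 4 was the higher TRAP array and replicate 2 the higher input array. Without any 1 of the arrays the difference of 1430979_a_at stayed between 0.92 and 1.16 but did not pass (adjusted p between 0.109 and 0.131 from limma), and after quantile normalization it was 0.51 (0.108).

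Prdx3 is the peroxiredoxin of the mitochondrial matrix. It was at 1396 and 1278 units in TRAP and 743 and 318 in input on 1416292_at. The TRAP arrays were close together and the input arrays were 1.22 log2 units apart. The difference did not pass (1.46, standard error 0.57, adjusted p = 0.150 from limma). Without input replicate 1 it was 2.07 and passed (adjusted p = 0.0306 from limma).

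Gpx1, a selenoprotein that reduces hydrogen peroxide in cytosol and mitochondria, was measured by 1 probe set, 1460671_at. It was at 2221 and 1324 units in TRAP and 629 and 323 in input. The lower TRAP array was above the higher input array, but the arrays of either fraction lay 0.75 (TRAP) and 0.96 (input) log2 units apart. The log2 difference was 1.93 (standard error 0.57, adjusted p = 0.0946 from limma), 3.81-fold and 1.49 above the median of the arrays.

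Gpx4, the selenoprotein that reduces lipid hydroperoxides within membranes and protects cells from ferroptosis, gave no common answer on its 2 probe sets. On 1451695_a_at it was at 7270 and 9917 units in TRAP and 3275 and 5627 in input (log2 difference 0.98, standard error 0.42, adjusted p = 0.169 from limma), without overlap. On 1456193_x_at, whose suffix marks probes that may bind other transcripts, it was at 12855 and 10774 units in TRAP and 8606 and 13976 in input, with overlap. The difference there was 0.10 (standard error 0.35, adjusted p = 0.819 from limma), and it was -0.31 after centring and -0.40 after quantile normalization, so no direction can be given for this probe set.

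Cat encodes catalase, the hydrogen peroxide-degrading enzyme of peroxisomes. Probe set 1416429_a_at was at 1654 and 1713 units in TRAP and 3048 and 3646 in input. Both TRAP arrays were thus far below both input arrays. The mean was 1684 ± 41.8 units in TRAP and 3347 ± 423 in input (SD, n = 2 each), so the level in input was 1.98-fold that in TRAP (log2 difference -0.99, standard error 0.12, adjusted p = 0.0256 from limma). Relative to the median of the arrays the difference was -1.43, and it fell under centring (adjusted p = 0.00954 from limma) and quantile normalization (0.0180) as well. The other probe set, 1416430_at, was at 627 and 803 units in TRAP and 721 and 720 in input (-0.02, standard error 0.17, adjusted p = 0.917 from limma), with overlap. The difference between the 2 probe sets was not tested. The difference of 1416429_a_at was -0.96 without TRAP replicate 2 (adjusted p of 0.146 by limma) and -1.01 without TRAP replicate 4 (0.141), where it did not pass, and it passed when either input array was left out.

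**Figure D2:**
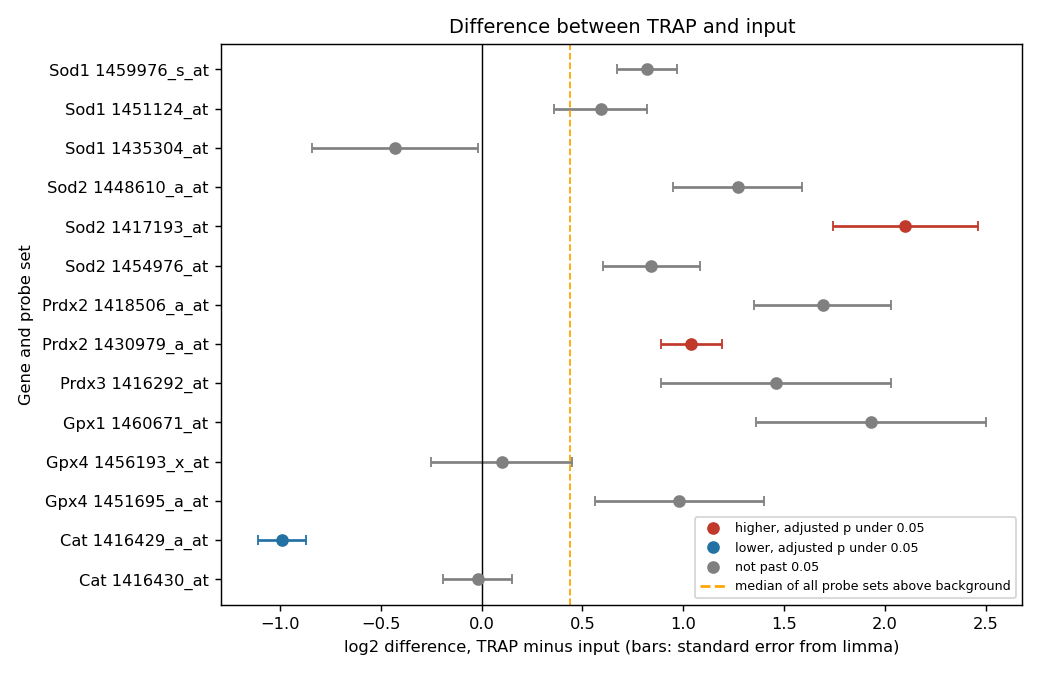
Log2 difference of TRAP minus input for the 14 probe sets above background, with the standard error from limma as bars. Red points are higher and the blue point lower at an adjusted p under 0.05, grey points did not pass, and the dashed line is the median of all probe sets above background (0.44); Cat 1416429_a_at lies at -0.99 and Sod2 1417193_at at 2.10.

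With 1 probe set for each gene, the one with the highest mean over the 4 arrays, 6 of the 7 genes had a positive difference and Cat a negative one. Of the 17073 probe sets above background 11076 had a positive difference. Relative to the median of the arrays Gpx4 was at -0.34. The order of the differences was Gpx1 (1.93), Prdx2 (1.69), Prdx3 (1.46), Sod2 (1.27), Sod1 (0.82), Gpx4 (0.10) and Cat (-0.99). Neighbours in this order from Gpx1 to Sod2 lay within 1 standard error of each other. On this choice 0 of the 7 genes were higher at an adjusted p under 0.05 from limma (3 at an unadjusted p under 0.05: Prdx2, Sod2 and Sod1), beside 18.7% of all genes above background. Cat alone was lower, beside 6.87%. The 2 rises above came from probe sets that were not the one chosen for their gene, and when the probe sets of a gene were averaged neither a rise nor a fall passed. The fall of Cat was lost without TRAP replicate 2 or 4, and Prdx3 passed without input replicate 1. Leaving out any 1 array lowered the share called over all genes above background.

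Replicate arrays moved the members in different directions. The input arrays split the genes: Sod2 on its 3 probe sets above background, Prdx3 and Gpx1 were higher on input replicate 1, by 0.48 to 1.22 log2 units, as was Sod1 1435304_at (0.23), while Cat 1416430_at was nearly equal, at 721 and 720 units. By contrast Sod1 1459976_s_at and 1451124_at, Prdx2, Gpx4 and Cat 1416429_a_at were higher on input replicate 2, with replicate 1 minus replicate 2 between -0.78 and -0.21. Thus 7 of the 14 were higher on input replicate 1 and 7 on replicate 2. Of all 17073 probe sets above background 8411 and 8159 were, so the even split is that of the whole array. Between the TRAP arrays 5 of the 14 probe sets were higher on replicate 2 and 9 on replicate 4, beside 7661 and 8676 of the 17073. The median difference between these arrays (replicate 2 minus 4) was -0.14, and -0.01 over the 17073. Gpx1 was the farthest above 0 (0.75) and Sod1 1435304_at the farthest below (-0.85). Glial markers ran almost one way between these arrays. On TRAP replicate 2, 11 of 12 astrocyte markers were higher than on replicate 4 (median 0.81 log2 units), as were 10 of 11 oligodendrocyte markers (1.46) and all 6 microglia markers above background (1.06), while 7 of 8 dopamine neuron markers were higher on replicate 4 (-0.33).

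**Figure D3:**
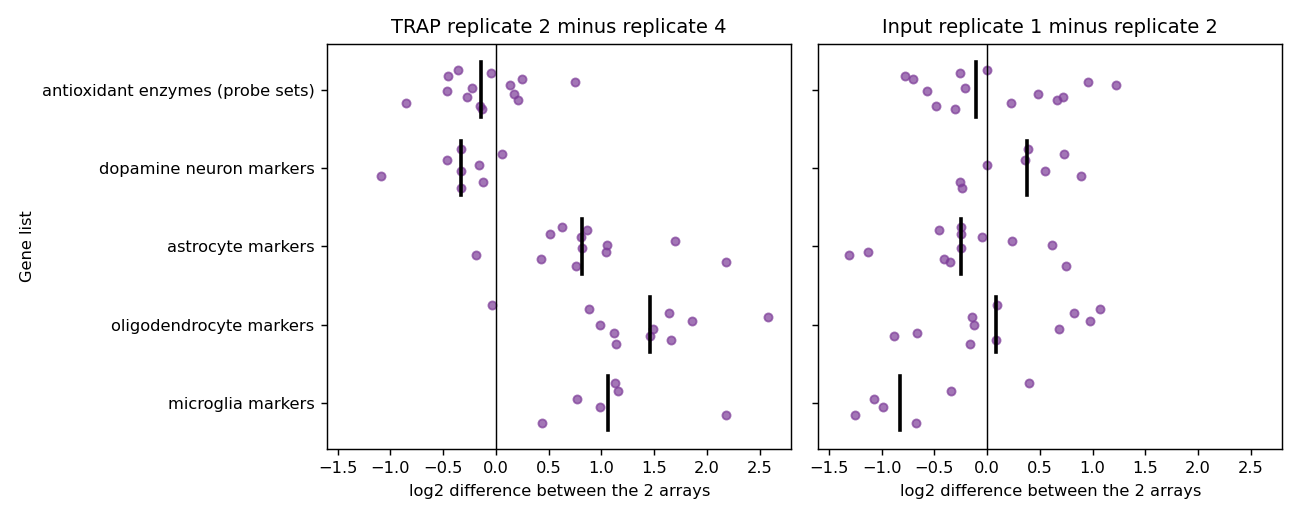
Log2 difference between the 2 TRAP arrays (left) and the 2 input arrays (right) for the antioxidant enzyme probe sets and 4 marker lists, above background. Each point is a probe set, set apart vertically only for legibility, and black lines are medians; the antioxidant enzymes lie on both sides of 0 in both panels, with medians of -0.14 and -0.10.

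The fractions differed in their cell markers. All 8 dopamine neuron markers rose, beside 18.7% of all genes above background. Among them was Slc6a3, the dopamine transporter (37882 and 41149 units in TRAP, 4856 and 5824 in input). The paper holds the Slc6a3 probe set to be likely saturated in TRAP. The summed level of the 12 astrocyte markers was 21184 to 35812 units in TRAP and 54292 to 62986 in input. All 12 had negative differences, as 5997 of the 17073 probe sets above background did. Of the 12, 2 fell, beside 6.87% of all genes above background. The 11 oligodendrocyte markers summed to 37723 to 85358 units in TRAP and 104984 to 105594 in input. All 11 were negative, the fractions of 2 of them overlapped, and 1 fell, which is close to the 6.87%. The 9 microglia markers summed to 1376 to 3006 units in TRAP and 3556 to 4815 in input, of which Ctss gave 1934 on TRAP replicate 2. Above background were 6, all negative. The fractions of 2 of the 6 overlapped, Ctss among them, and 1 of the 6 fell. Of 7 endothelial markers 5 and of 5 red blood cell markers 4 were under 50 units on every array. The part of these cells in the lower level of Cat, and in the levels of the other members, was not tested, and in tissue RNA fewer cells of a type and less RNA per cell cannot be told apart.

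The other genes of the redox system were described from 7 lists. Of 66 genes 65 were measured, each on its brightest probe set, and 54 were above background, of which 8 rose and 1 fell, beside 18.7% and 6.87% of all genes above background. Their median difference was 0.59 log2 units, or 0.18 after centring, and in 34 of the 54 both TRAP arrays were above both input arrays, beside 52.3% of all genes above background. With only probe sets above background in the fit 16 were higher, beside 22.7% of all genes. After centring 13 were higher and 5 lower, beside 21.4% and 21.2%. Without TRAP replicate 2 the number higher was 3, beside 7.78%, and without TRAP replicate 4 it was 2, beside 7.38%.

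Of 13 genes of thioredoxins, glutaredoxins and sulfiredoxin, which reduce the peroxiredoxins and other oxidized thiols, 3 rose and 1 fell, close to the 18.7% and 6.87% of all genes above background. Txn2, the mitochondrial thioredoxin that serves Prdx3, was at 2838 and 3292 units in TRAP and 1195 and 1006 in input (log2 difference 1.48, standard error 0.15, adjusted p = 0.0182 from limma). Txnrd2, the reductase that keeps Txn2 reduced, was at 486 and 345 units in TRAP and 144 and 145 in input (1.50, standard error 0.23, adjusted p = 0.0374 from limma). For both genes each TRAP array was well above each input array. Srxn1, which repairs overoxidized peroxiredoxins, was at 1662 and 1790 units in TRAP and 765 and 977 in input (1.0, standard error 0.17, adjusted p = 0.0456 from limma), and it missed the threshold after centring (0.0550) and quantile normalization (0.171). Txnrd2 missed it after quantile normalization (0.0630). The probes of Srxn1, as their suffix _s_at says, are shared with other transcripts. Txnip, an inhibitor of thioredoxin, was at 19.7 and 17.6 units in TRAP, below background, and at 152 and 115 in input, a fall of at least 2.65-fold against 50 units (adjusted p = 0.00899 from limma). With 1 array left out these differences kept their direction and calls were lost as follows: Txn2 (1.35 to 1.60) without any 1 of the 4 (adjusted p between 0.0696 and 0.122), Txnrd2 (1.25 to 1.75) without input replicate 1 (0.172) or 2 (0.173), Srxn1 (0.82 to 1.17) without TRAP replicate 2 (0.180), TRAP replicate 4 (0.204) or input replicate 1 (0.0681), and Txnip without TRAP replicate 2 (0.0919) or 4 (0.0988).

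Glutathione genes were measured as 9 of synthesis, recycling and NADPH supply and 10 transferases above background, with 1 and 2 rises and 0 falls, beside 18.7% and 6.87% of all genes. Gclm, the modifier subunit of the enzyme that commits glutamate and cysteine to glutathione, was at 1188 and 1252 units in TRAP and 660 and 594 in input (log2 difference 0.96, standard error 0.08, adjusted p = 0.0118 from limma). Pgd, an NADPH-producing enzyme of the pentose phosphate pathway, did not pass, at 6235 and 5764 units in TRAP and 3545 and 5432 in input (0.45, standard error 0.29, adjusted p = 0.296 from limma). Among the transferases, which couple glutathione to electrophiles, Gstm5 (1.52, standard error 0.17, adjusted p = 0.0204 from limma) and Gsta4 (1.26, standard error 0.15, adjusted p = 0.0243 from limma) rose. Gstm5 was at 3711 and 4387 units in TRAP and 1289 and 1546 in input, and Gsta4 at 1924 and 2004 in TRAP and 916 and 733 in input. For Gclm, Gstm5 and Gsta4 the fractions were far apart, and for Pgd the lower TRAP array was close to the higher input array. Gstm5, at 1.38 to 1.65, did not pass without any 1 array (adjusted p of 0.0780 to 0.127 by limma), and neither did Gclm (0.101 and 0.111) or Gsta4 (0.135 and 0.144) without TRAP replicate 2 and 4.

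Of 6 genes above background in the list named for the Nrf2 pathway, 2 rose and 0 fell, beside 18.7% and 6.87% of all genes. The 2 were Park7 and Hmox2, and whether Nrf2 acts on either was not measured. Nfe2l2, which encodes Nrf2, was below background, at 61.9 and 20.5 units in TRAP and 270 and 35.1 in input. Park7, the Parkinson disease gene that encodes the oxidation-sensitive protein DJ-1, was at 17949 and 16623 units in TRAP and 6324 and 7051 in input (log2 difference 1.37, standard error 0.09, adjusted p = 0.00773 from limma). Hmox2, the constitutive heme oxygenase, was at 3622 and 3349 units in TRAP and 1489 and 1449 in input (1.25, standard error 0.06, adjusted p = 0.00370 from limma), and it passed under all 10 alternatives to the fit, with an adjusted p of at most 0.0479. Among the 9 other redox genes with a call Hmox2 alone did so, and Park7 did not pass without TRAP replicate 2 (1.32, adjusted p of 0.0806 by limma) or 4 (1.43, 0.0756). The inducible targets Nqo1 and Hmox1 were below background, at 8.45 units or less on every array.

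The remaining lists held no gene above background that passed the threshold. The list of further dismutases, peroxidases and copper delivery had 4 genes above background, Ccs, Prdx4, Gpx3 and Gpx8. The further dismutase, Sod3, was below background. Gpx3, the secreted glutathione peroxidase, was at 865 and 496 units in TRAP and 712 and 1109 in input (log2 difference -0.44, standard error 0.48, adjusted p = 0.489 from limma). Prdx4, the peroxiredoxin of the endoplasmic reticulum, was at 499 and 675 units in TRAP and 160 and 324 in input (1.35, standard error 0.52, adjusted p = 0.145 from limma), without overlap. All 3 methionine sulfoxide reductases above background, Msrb1, Msra and Msrb2, had TRAP above input, as 52.3% of all genes did, with differences of 0.90 to 1.65. Of the 9 genes for selenoprotein synthesis and selenium transport, on which Gpx1 and Gpx4 depend, 6 were positive and 3 negative. This is close to the 11076 positive and 5997 negative of the 17073 probe sets above background. Selenop, the selenium carrier, was at 7310 and 2807 units in TRAP and 11349 and 7659 in input (-1.04, standard error 0.69, adjusted p = 0.307 from limma), and Sephs2, which makes the selenium donor, at 2466 and 1311 in TRAP and 1260 and 968 in input (0.70, standard error 0.46, adjusted p = 0.300 from limma).

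**Figure D4:**
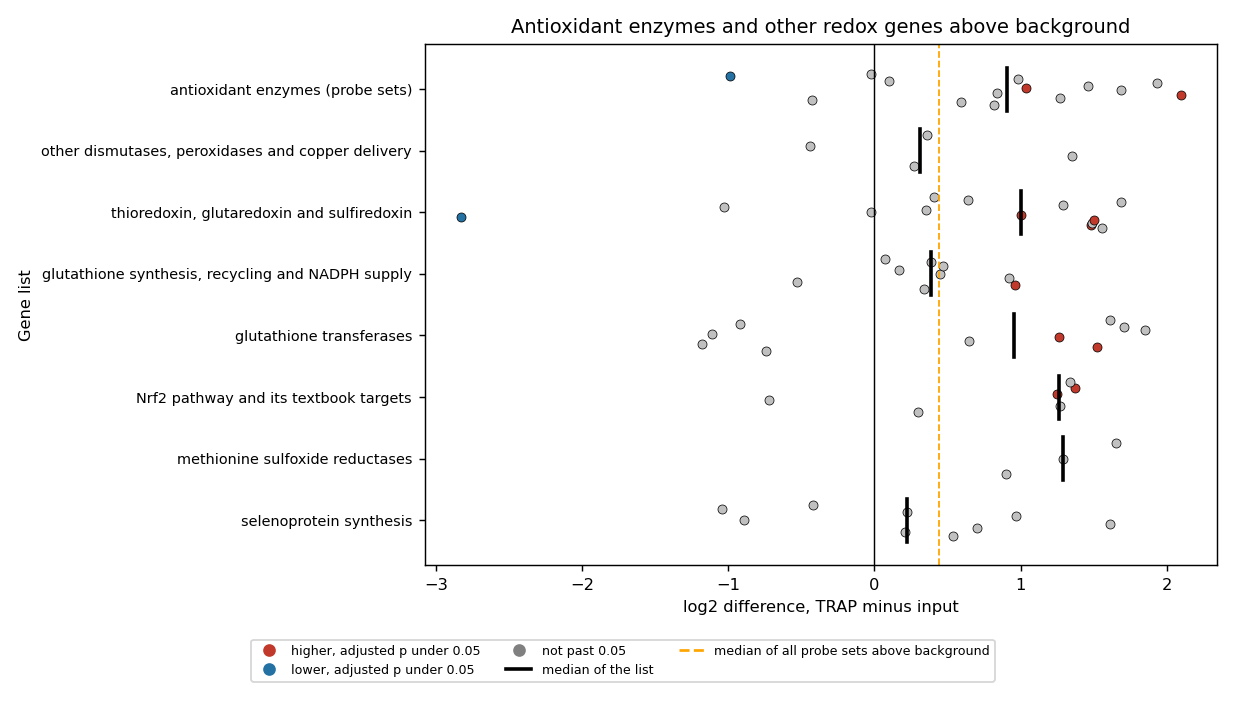
Log2 difference of TRAP minus input for the 14 antioxidant enzyme probe sets and for the 54 other redox genes above background, by list. Red points are higher and blue points lower at an adjusted p under 0.05, black lines are list medians and the dashed line is the median of all probe sets above background; the antioxidant enzymes have a median of 0.91 and the lowest point is Txnip at -2.83.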

How the data were processed

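RNA of 2 TRAP and 2 input samples was hybridized to Affymetrix mouse expression arrays after two-cycle amplification, and the deposited log2 values were made by the authors with GCRMA (version not given in the sources used here). The values of TRAP and input follow different distributions and no further normalization was applied. The 64 control probe sets were removed from 45101. The platform annotation gives 34945 of the other 45037 a single symbol, 932 several and 9160 none.

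TRAP was compared with input by limma 3.58.1 in R 4.3.3 across all 45037 probe sets (2-sided, Benjamini-Hochberg adjustment, threshold 0.05), with 2 residual and 0.317 prior degrees of freedom. The 2 arrays of TRAP and the 2 of input are exactly equal for 15551 probe sets, 0 of them members, which enter the variance prior. The number of arrays limits the precision, and p-values measure only the spread between arrays of a fraction. In it, differences between pools cannot be told apart from those of purification, amplification and hybridization.

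Members and lists were chosen with earlier results of these data known. A single probe set stood for a gene where needed, the highest mean over the 4 arrays. Named were all members with a probe set, up to 4 passing genes of each redox list (the brightest to make at least 2), and the leading markers. The background of 50 units was chosen here. Gene lists covered dopamine neurons, astrocytes, oligodendrocytes, microglia, endothelium and red blood cells. Alternatives were quantile normalization, centring, a fit above background only, values raised to 50 units, an intensity trend, control probe sets kept, a background of 100 units, gene means and each array left out. Counts of non-overlapping arrays under these were added after the values were seen.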

Additional observations from a re-analysis of the deposited data

How the results depend on the processing

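The numbers of antioxidant enzyme probe sets past the threshold (2 higher, 1 lower) depended on the variance prior and on single arrays. The number higher was 0 after quantile normalization, 0 with values under 50 units raised to 50 and 4 with an intensity trend in the prior. For these settings no share over all probe sets was computed, so their counts are not a result about the members. With only probe sets above background in the fit it was 5, beside 23.2% of all in that fit. Leaving out any 1 array lowered it, and lowered the share called over all probe sets above background too. The number lower was 0 with values raised to 50. The fall of Cat 1416429_a_at was also lost without TRAP replicate 2 (-0.96) or TRAP replicate 4 (-1.01). Calls without 1 array were in part of other probe sets than in the main fit. Among them was Cat 1416430_at, with a difference of 0.16 without TRAP replicate 2 and -0.20 without TRAP replicate 4. All 14 probe sets kept their log2 difference when values were raised to 50, and only the prior and the adjustment over the other probe sets changed. In that fit 60% of the probe sets had zero residual variance, and limma gave a warning that its estimates are unreliable there, so its counts carry little weight. The share was 34.5% with the deposited values, 0.498% above background only, and 41.7% to 47.8% when 1 array was left out, which also leaves 1 residual degree of freedom and assumes that the lone array varies like the other fraction. Over the 7 genes on their brightest probe set (0 higher, 1 lower), 1 was higher after centring, beside 21.4% of all genes above background. With only probe sets above background in the fit 3 were higher, beside 22.7%, and with an intensity trend 2 were. The number lower was 0 with values raised to 50 and 0 with gene means. The other redox genes (8 higher, 1 lower) gave 13 higher and 5 lower after centring, beside 21.4% and 21.2% of all genes above background. They gave 16 higher with only probe sets above background in the fit, beside 22.7%. With values raised to 50 the numbers were 1 higher and 0 lower. An intensity trend gave 15 higher, and gene means gave 0 lower. Leaving out 1 array changed the numbers as well. Probe sets with TRAP above input numbered 10 to 11 without any 1 array, and those with TRAP below input 3 after quantile normalization, 3 after centring and 1 to 3 without any 1 array.

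Gpx4 1456193_x_at turned to -0.40 after quantile normalization, -0.31 after centring, and -0.25 to 0.45 when 1 array was left out (-0.03 without TRAP replicate 2 and -0.25 without input replicate 1). Cat 1416430_at turned to 0.16 without TRAP replicate 2, where it passed (adjusted p = 0.0101 from limma), and was -0.20 without TRAP replicate 4 (0.00792); its input arrays are nearly equal. Each other member probe set above background kept its sign under all 10 alternatives to the fit. No paired analysis was possible because the fractions share only the replicate number 2, which by the methods would be 1 pool of mice.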
